A study of Mus musculus with 10 samples.

Results

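The 10 genes described here encode transcription factors of the B lineage: Pax5, Ebf1, Tcf3, Foxo1, Ikzf1, Ikzf3, Lef1, Bach2, Spib and Irf4. They were taken by name from the 55494 genes of the annotation by a rule that uses no measured value, though with earlier results of these data known. Bulk RNA sequencing was done on leukemia initiating cells sorted by flow cytometry from the spleens of mouse pups 13 days old. All pups carried the RFP/RET transgene, a fusion oncogene, in the line called Eμ-Ret after the heavy chain enhancer that drives it in lymphoid cells. The control group, PBS, consisted of 5 pups given 50 µl of PBS, and the treated group, Poly(A:U), of 5 pups given 20 µg of Poly(A:U), a double-stranded RNA made from synthetic strands. Cells were collected 7 days after treatment, and the study asked what Poly(A:U) does to them. No library came from a pup without the transgene, so every level below is a level in transformed cells.

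B cell development is built up by these factors in layers. The E proteins encoded by Tcf3, together with Foxo1, open the way for Ebf1, and Ebf1 then turns on Pax5, which commits the cell to the B lineage by activating B cell genes and repressing genes of other lineages. The Ikaros family, Bach2, Lef1 and the ETS and IRF partners act beside this core during the precursor stages, and several of these genes are altered in human B cell precursor leukemia.

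Libraries held between 17849707 and 22572180 estimated reads in genes, and replicate numbers below are those of the sample titles. The B cell precursor markers were present in all 10 libraries: Cd79a, which encodes Ig-alpha, ran from 2541 to 3687 CPM (reads of a gene scaled to the library total), and the surrogate light chain gene Vpreb1 from 813 to 1593 CPM. Libraries stood apart in 2 ways. PBS 4 had 16032 genes with at least 10 reads, against 13423 to 14723 elsewhere. Its 10 T cell markers summed to 177 CPM against 6.51 to 15.5 CPM in the other 9 libraries, and its 10 precursor markers to 7373 CPM, the lowest of all. The T cell receptor gene Cd3e had 53.9 CPM in that library, 2.97 CPM in Poly(A:U) 5 and 0 to 0.53 CPM in the rest. PBS 1, PBS 2 and PBS 3 share a name start that no other library has. Their 9 neutrophil markers summed to 688 to 1035 CPM against 29.2 to 259 CPM in the other 7, and their 8 erythroid markers to 138 to 432 CPM against 1354 to 12302 CPM. For the 8 macrophage markers the sum was 134 to 171 CPM in the first 4 PBS libraries, against 36.4 to 58.7 CPM elsewhere. The part of these other cells in the results was not tested, and results are therefore also given without the libraries concerned.

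All 10 factors were expressed in every library, and none of them passed the test between Poly(A:U) and PBS. On the per-length scale (TPM, transcript abundance corrected for length), which allows genes to be compared, Tcf3 had the highest level, 446 ± 49.6 TPM (SD, n = 10). Spib followed at 292 ± 49.3, Lef1 at 266 ± 43.5 and Pax5 at 259.6 ± 57.7 TPM. Ebf1 had 192 ± 50.0, Ikzf1 165 ± 29.7, Foxo1 116 ± 29.3 and Irf4 76.7 ± 16.6 TPM. The lowest were Bach2, at 32.4 ± 9.01, and Ikzf3, at 31.0 ± 9.98 TPM. Neighbours in this order were separated in all 10 libraries for Tcf3 over Spib, Pax5 over Ebf1, Ikzf1 over Foxo1, Foxo1 over Irf4 and Irf4 over Bach2. The order of Spib over Lef1 held in 7 libraries, Lef1 over Pax5 in 5, Ebf1 over Ikzf1 in 8 and Bach2 over Ikzf3 in 6, and these neighbours did not differ beyond their spread. Irf4 over Bach2 was the only step at which the ranges of neighbours did not meet.

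Tcf3 encodes the E proteins E12 and E47, basic helix-loop-helix factors needed from the first steps of the B lineage. Its gene lies on the minus strand of chromosome 10 (80409514 to 80433647, mm10). The PBS libraries had 943, 859, 899.7, 699 and 929 CPM in the order of their numbers, and the Poly(A:U) libraries 874, 838, 852, 828 and 732 CPM. The groups overlapped, PBS 4 and Poly(A:U) 5 being the lowest of the 10. The means were 866 ± 98.6 and 825 ± 54.6 CPM (SD over 5 libraries here and below), and edgeR's log2 fold change, Poly(A:U) minus PBS, was -0.09 ± 0.10 (SE). E12 and E47 differ by a pair of mutually exclusive exons that encode the DNA-binding and dimerization domain. Of the 14 annotated transcripts, 4 have the E12 exon and 6 the E47 exon. The exons are shown because they set the E12 and E47 forms apart, both written 5′ to 3′ on the minus strand, with the bases that differ between them in capitals.
E12 exon, chr10:80412827-80413062: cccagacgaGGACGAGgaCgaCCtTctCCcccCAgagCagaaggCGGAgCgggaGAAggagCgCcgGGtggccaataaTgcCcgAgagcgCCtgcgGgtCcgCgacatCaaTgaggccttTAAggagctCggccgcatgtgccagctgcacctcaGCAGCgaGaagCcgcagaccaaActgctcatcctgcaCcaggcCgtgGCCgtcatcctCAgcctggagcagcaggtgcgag
E47 exon, chr10:80410398-80410624: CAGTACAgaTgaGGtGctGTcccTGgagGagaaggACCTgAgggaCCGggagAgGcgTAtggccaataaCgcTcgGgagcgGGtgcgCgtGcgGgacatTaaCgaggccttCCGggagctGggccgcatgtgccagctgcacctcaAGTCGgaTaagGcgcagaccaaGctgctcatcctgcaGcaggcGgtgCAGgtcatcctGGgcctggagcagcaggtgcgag
The exons have 236 and 227 bases, and 170 of 227 aligned bases are identical (74.9%).

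Ebf1, the factor that makes B lineage chromatin accessible, is encoded on the plus strand of chromosome 11 (44617317 to 45008091). The PBS libraries had 832, 869, 772, 459.7 and 668 CPM and the Poly(A:U) libraries 662, 569.6, 623, 581 and 767 CPM. PBS 1 to PBS 3 were above all Poly(A:U) libraries, PBS 4 was below all of them and PBS 5 lay among them. The group means of 719.9 ± 164 and 641 ± 79.6 CPM gave a log2 fold change of -0.19 ± 0.15 (SE).

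Foxo1, a forkhead factor that activates the recombinase genes and the interleukin-7 receptor gene and is held out of the nucleus by AKT, lies on the plus strand of chromosome 3 (52268336 to 52353221). Its levels were 926, 929.9, 829.5, 466 and 709 CPM in PBS and 727, 557, 633, 669.5 and 801 CPM in Poly(A:U). The pattern was that of Ebf1: the same 3 PBS libraries above every Poly(A:U) library, and PBS 4 the lowest of all. The means were 772 ± 193 and 677 ± 92.7 CPM, a log2 fold change of -0.22 ± 0.16 (SE). Since Ebf1 and Foxo1 varied together (see the correlations given further on), the RefSeq promoters of the factors were searched on both strands for the palindromic EBF motif TCCCNNGGGA. Promoters, taken as the 250 bases before the start, were found for 9 of the 10 genes, Ikzf3 having no match. The motif was in 256 of 32851 such promoters (0.779%) and in 1 of the 14 promoters of the factors, that of Foxo1. It began 92 bases before the start, and it is shown in capitals in its surroundings, plus strand, GRCm38.p6.
Foxo1 promoter, chr3:52268220-52268279: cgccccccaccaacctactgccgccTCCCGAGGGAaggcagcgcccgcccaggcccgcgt
This match describes the letters and does not show binding. Of other motifs searched, CAGGTG (an E-box), TGTTTAC (FOXO) and CTTTGAT (LEF) were in no promoter of a factor, against 17.2%, 3.17% and 3.21% of all promoters, TGGGAA (Ikaros) was in that of Ebf1, against 21.6%, and GAGGAA (ETS) in those of Ebf1, Irf4 and Lef1, against 23.3%. None of these motifs contains another.

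Pax5, the factor of B lineage commitment, is encoded on the minus strand of chromosome 4 (44524757 to 44710487). The PBS libraries had 1663, 1493, 1371, 759 and 1257 CPM and the Poly(A:U) libraries 1131, 906, 1086, 1050.2 and 1396 CPM. PBS 1 and PBS 2 were above all Poly(A:U) libraries, Poly(A:U) 5 was above PBS 3 to PBS 5, and PBS 4 was the lowest, so the groups overlapped. The means were 1309 ± 342 and 1114 ± 179 CPM. The log2 fold change was -0.26 ± 0.17 (SE), with a 95% interval from -0.64 to 0.12.

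Of the Ikaros family of zinc finger factors, Ikzf1 (Ikaros) lies on the plus strand of chromosome 11 (11685003 to 11772926). It had 579, 525, 563, 542 and 647 CPM in PBS and 590.0, 439, 503, 528 and 597 CPM in Poly(A:U). PBS 5 was the highest and Poly(A:U) 2 the lowest, and the remaining 8 libraries lay between 503 and 597 CPM. The means were 571 ± 46.8 and 532 ± 65.4 CPM, a log2 fold change of -0.13 ± 0.09 (SE). Ikzf3 (Aiolos), which rises as pre-B cells mature, lies on the minus strand of the same chromosome (98464902 to 98546031). It had 102, 80.4, 67.1, 51.1 and 130.4 CPM in PBS and 77.5, 46, 78.3, 78.8 and 83.0 CPM in Poly(A:U). Among the 10 factors it had the widest range, 2.84-fold from Poly(A:U) 2 to PBS 5. Its means of 86.3 ± 31.0 and 72.7 ± 15.1 CPM gave the largest log2 fold change of the 10 in size, -0.28 ± 0.23 (SE), with a 95% interval from -0.78 to 0.23. That rank rests on PBS 5, without which the value was -0.09 for Ikzf3 and -0.29 for Pax5; without Poly(A:U) 2 it was -0.16 for Ikzf3.

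Spib, an ETS factor related to PU.1, lies on the minus strand of chromosome 7 (44525993 to 44532071). Its PBS libraries had 584, 639, 522, 403 and 714 CPM and its Poly(A:U) libraries 599, 553, 594, 563 and 424 CPM. PBS 4 and Poly(A:U) 5, the pair lowest for Tcf3, were lowest here too, and PBS 5 was highest. The means were 572 ± 118 and 547 ± 71.2 CPM, a log2 fold change of -0.09 ± 0.15 (SE). Irf4, an interferon regulatory factor that binds with ETS partners and acts in light chain rearrangement and later in plasma cells, lies on the plus strand of chromosome 13 (30749226 to 30766976). It had 246, 241, 231, 251 and 354 CPM in PBS and 305, 222, 286, 282 and 345 CPM in Poly(A:U). PBS 1 to PBS 4 lay within 231 to 251 CPM, below 4 of the 5 Poly(A:U) libraries, while PBS 5 was the highest of the 10. Irf4 was the only factor with a positive log2 fold change, 0.09 ± 0.13 (SE), from means of 265 ± 50.3 and 288 ± 44.5 CPM.

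Bach2, a repressor that acts at the pre-B cell receptor checkpoint, lies on the plus strand of chromosome 4 (32238804 to 32586108). It had 251, 219.7, 203, 147 and 258 CPM in PBS and 199, 135, 171, 164 and 249 CPM in Poly(A:U). Poly(A:U) 5 was level with the higher PBS libraries and PBS 4 with the lower Poly(A:U) libraries. The means were 216 ± 44.5 and 184 ± 42.9 CPM, a log2 fold change of -0.26 ± 0.16 (SE), with the smallest unadjusted p of the 10 genes in edgeR's test (0.133). Lef1, the nuclear partner of beta-catenin in Wnt signalling, which is expressed in B and T cell precursors, lies on the plus strand of chromosome 3 (131110471 to 131224356). It had 625, 638, 576, 446 and 416 CPM in PBS and 475, 478, 488, 496 and 541 CPM in Poly(A:U). PBS 1 to PBS 3 were above all Poly(A:U) libraries, and PBS 4 and PBS 5 below all of them. The means of 540.2 ± 103 and 496 ± 26.5 CPM gave a log2 fold change of -0.15 ± 0.12 (SE). Tcf7, the Lef1 relative of T cells, named here after its values were seen, reached 151 CPM in PBS 4, stood next at 29.9 CPM in Poly(A:U) 5, and had 4.56 to 7.80 CPM in the other 8 libraries.

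**Figure D1:**
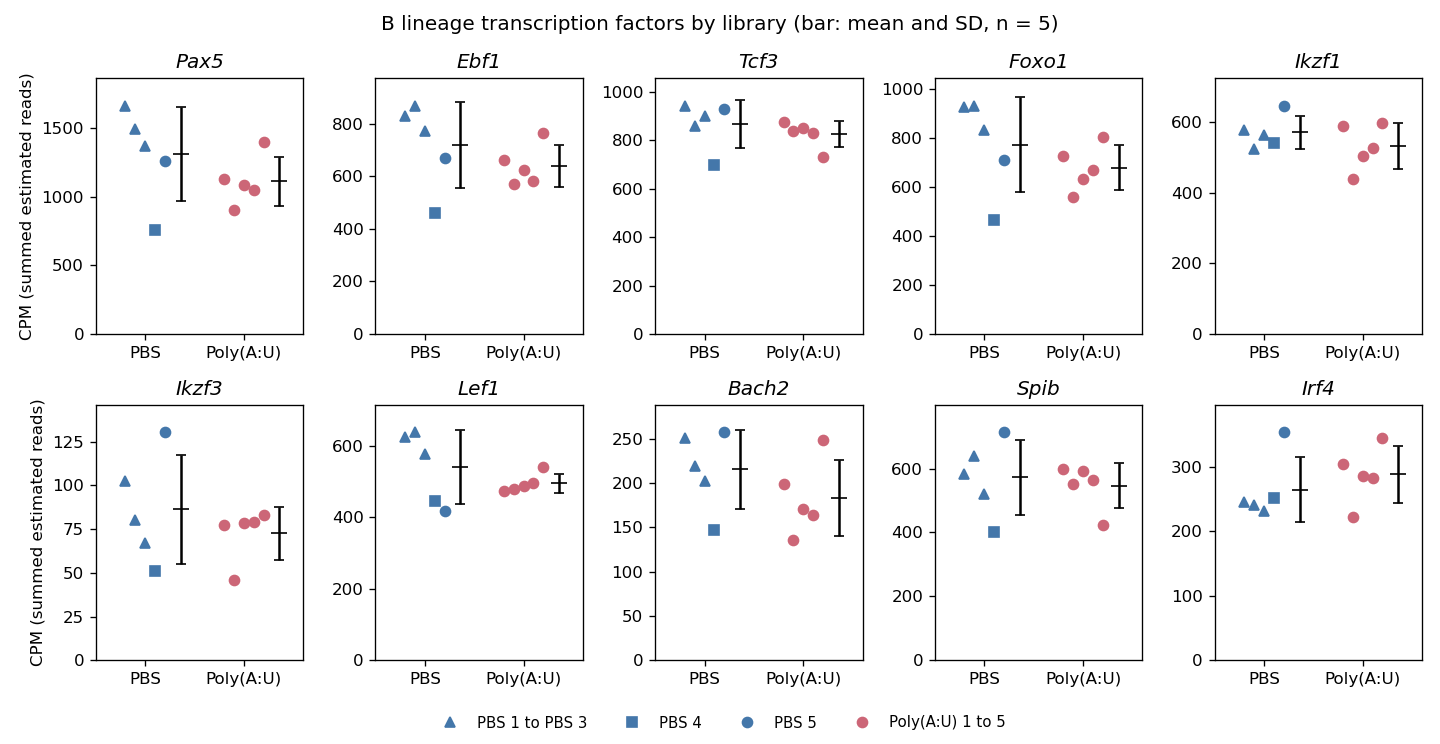
Level of each factor in each library (CPM on the vertical axis, starting at 0), PBS in blue and Poly(A:U) in red, with the mean and SD of 5 libraries beside each group. The groups overlap for all 10 factors; PBS 1 to PBS 3 (triangles) lie above every Poly(A:U) library for Ebf1, Foxo1 and Lef1, and PBS 4 (square) is lowest for Pax5, Ebf1, Tcf3, Foxo1 and Spib.

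Between treatments, 0 of the 10 factors passed edgeR's quasi-likelihood test (Benjamini-Hochberg adjusted p from 0.700 to 0.885), in a comparison in which 0 of 13729 tested genes did (0%). At an unadjusted p below 0.05 there were also 0 factors, where 7.3% of tested genes had such a p (edgeR), and DESeq2 called 0 of the 10, against 0.0947% of tested genes. The groups were separate for 0 factors, against 0.947% of tested genes. The log2 fold change was negative for 9 factors and positive for 1, with a median of -0.17, where 50.6% of tested genes were negative with a median of -0.00. The 95% intervals excluded a 2-fold change for all 10 factors and a 1.5-fold change for 7 of them. All 10 passed the filter on low counts. Each library came from a pup of its own, so the spread includes that between pups. It was not separated from differences in depth or in other cells.

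A different weighting of the libraries moved 4 of these results past the threshold. With limma voom and quality weights, which give less weight to libraries that fit their group poorly, Pax5 had a log2 fold change of -0.43 (adjusted p = 0.0340), Ebf1 -0.37 (0.0375), Foxo1 -0.40 (0.0380) and Bach2 -0.39 (0.0416). That fit called 870 genes, 6.34% of those tested, against 0 by edgeR. Without PBS 4, edgeR gave -0.40 for Pax5 (adjusted p = 0.215), -0.31 for Ebf1 (0.241), -0.35 for Foxo1 (0.231), -0.37 for Bach2 (0.272) and -0.41 for Ikzf3 (0.364).

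The difference between groups followed the set of libraries that went into it. PBS 1 to PBS 3 were above all 5 Poly(A:U) libraries for 3 of the 10 factors (Ebf1, Foxo1 and Lef1), a pattern seen in 5.54% of tested genes and in 9.42% of the 2303 genes of at least 100 CPM. For the same 3 factors they were also the 3 highest of all 10 libraries, as for 4.27% of tested genes and 7.6% of those of at least 100 CPM. Foxo1 averaged 895 ± 56.7 CPM in these 3 libraries and 652 ± 112 CPM in the other 7, Ebf1 824 ± 49.1 and 619 ± 96.1 CPM, Pax5 1509 ± 147 and 1083 ± 211 CPM, and Lef1 613 ± 32.7 and 477 ± 39.1 CPM. Without them, edgeR's log2 fold change turned positive for Pax5 (0.11), Ebf1 (0.15), Foxo1 (0.18) and Lef1 (0.17). It turned negative for Irf4 (-0.10), and no factor passed. PBS was then PBS 4 and PBS 5 only, and PBS 4 was the lowest library for Pax5, Ebf1 and Foxo1. For these the Poly(A:U) mean was below the single library PBS 5. Pax5 had 1114 against 1257 CPM, Ebf1 641 against 668 CPM and Foxo1 677 against 709 CPM. These gaps are within the SD of the Poly(A:U) libraries (179, 79.6 and 92.7 CPM). Poly(A:U) 5 was above PBS 5 for each of them (1396, 767 and 801 CPM), as was Poly(A:U) 1 for Foxo1 (727 CPM). For Lef1 the Poly(A:U) mean of 496 CPM was above both PBS 4 and PBS 5. The name start of PBS 1 to PBS 3 occurs in PBS only. What it stands for and the treatment cannot be told apart with these 3 libraries in the comparison.

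A pair of PBS libraries shares a number in its names with a Poly(A:U) library, PBS 5 with Poly(A:U) 1 and PBS 4 with Poly(A:U) 5. What the number stands for is not given in the sources used here. Within the first pair, the log2 difference of Poly(A:U) from PBS was near 0 for Pax5 (-0.15), Ebf1 (-0.01) and Foxo1 (0.04), and lower for Ikzf3 (-0.75) and Bach2 (-0.37). Within the second pair it was positive for all 10 factors: 0.88 for Pax5, 0.74 for Ebf1, 0.78 for Foxo1, 0.76 for Bach2, 0.70 for Ikzf3, 0.46 for Irf4, 0.28 for Lef1, 0.14 for Ikzf1, 0.08 for Spib and 0.07 for Tcf3. The PBS library of the second pair is PBS 4, the one with the T cell markers and the lowest precursor markers. With the shared name parts as terms, edgeR's fit leaves these 2 pairs to carry the treatment. In it 5 factors changed sign: Pax5 to 0.31, Ebf1 to 0.31, Foxo1 to 0.36, Lef1 to 0.18 and Bach2 to 0.14, with 0 factors past the threshold. In the pair with PBS 5 the difference was negative for Pax5 and Bach2, near 0 for Ebf1 (-0.01) and Foxo1 (0.04), and 0.19 for Lef1. The turn of Pax5, Ebf1 and Bach2 thus rests on the pair with PBS 4, and that of Foxo1 mainly so.

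**Figure D2:**
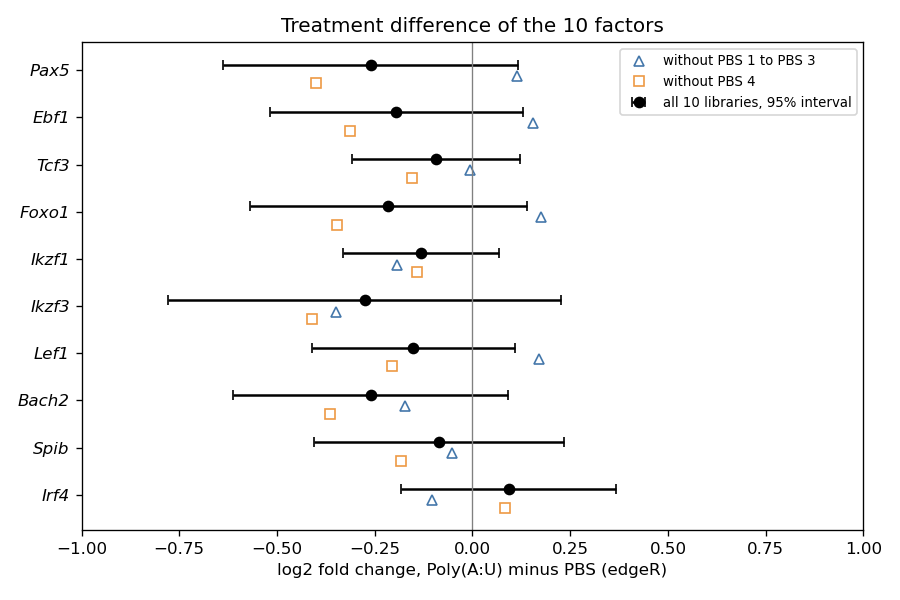
Log2 fold change of each factor, Poly(A:U) minus PBS (edgeR), with all 10 libraries (filled points, bars are 95% intervals), without PBS 1 to PBS 3 (triangles) and without PBS 4 (squares). All intervals include 0, and the triangles of Pax5, Ebf1, Foxo1 and Lef1 lie on the positive side.

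PBS 4 was the lowest of the 10 libraries for 5 factors (Pax5, Ebf1, Tcf3, Foxo1 and Spib), a rank it held for 20.9% of tested genes and for 22.5% of genes of at least 100 CPM. It was also the library with the T cell markers, and its precursor markers were lowest. In bulk RNA, fewer cells of the B lineage and less RNA of these genes per cell cannot be told apart. Poly(A:U) 2 was the lowest for Ikzf1, Ikzf3, Bach2 and Irf4, and PBS 5 for Lef1. PBS 5 was the highest for Ikzf1, Ikzf3, Bach2, Spib and Irf4.

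Across the 10 libraries Pax5, Ebf1 and Foxo1 rose and fell together. On log2(CPM + 1), Pearson's r was 0.974 for Pax5 with Ebf1 (Spearman's rho 0.976), 0.979 for Pax5 with Foxo1 (rho 0.952) and 0.979 for Ebf1 with Foxo1 (rho 0.976), each with an adjusted permutation p of 3.0e-04 over the 45 pairs. Without the 2 libraries farthest from the median of the first gene, r was 0.957, 0.958 and 0.950. Over the 7 libraries outside the shared name start it was 0.974, 0.969 and 0.956, and without PBS 4 0.955, 0.963 and 0.962. The 3 libraries with the name start are too few for a value of their own.

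Of the 45 pairs, 11 passed the permutation test on r after adjustment, all with a positive r, and 5 passed on both r and rho. The other 8 were Pax5 with Bach2 (r = 0.868, adjusted permutation p = 0.0124), Tcf3 with Spib (0.858, 0.0256), Ikzf3 with Bach2 (0.855, 0.0102), Ikzf1 with Bach2 (0.809, 0.0238), Foxo1 with Bach2 (0.806, 0.0283), Ebf1 with Bach2 (0.794, 0.0319), Ebf1 with Lef1 (0.788, 0.0319) and Foxo1 with Lef1 (0.777, 0.0366). Bach2 thus varied with 5 of the other factors. The share of pairs among all expressed genes that reach such an r was not computed, so these counts cannot be read as particular to the factors. Over the 7 libraries outside the shared name start 10 pairs passed. Both pairs with Lef1 were at 0.42 and 0.40 there and did not pass, nor did Ebf1 and Foxo1 with Bach2 (0.809 and 0.813, adjusted exact permutation p = 0.0744 and 0.0829). In their place 3 pairs with Irf4 passed, with Bach2 (r = 0.973, adjusted exact permutation p = 0.00446), with Ikzf3 (0.915, 0.0482) and with Ikzf1 (0.899, 0.0472), whose r over all 10 libraries was 0.502, 0.639 and 0.681. Pax5 with Irf4 had an r of 0.124 over 10 libraries and 0.869 over these 7 (adjusted exact permutation p = 0.0511). The co-variation of Irf4 thus depended on whether PBS 1 to PBS 3 were included. The pair of Tcf3 and Spib had an r of 0.339 without the 2 libraries farthest from the Tcf3 median, PBS 4 and Poly(A:U) 5, and rests on them. The lowest r was that of Lef1 with Irf4, -0.46, which did not pass. Leaving out single libraries changed how many pairs passed, to 7 when PBS 1 was left out, 6 for PBS 4 and 4 for Poly(A:U) 2.

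**Figure D3:**
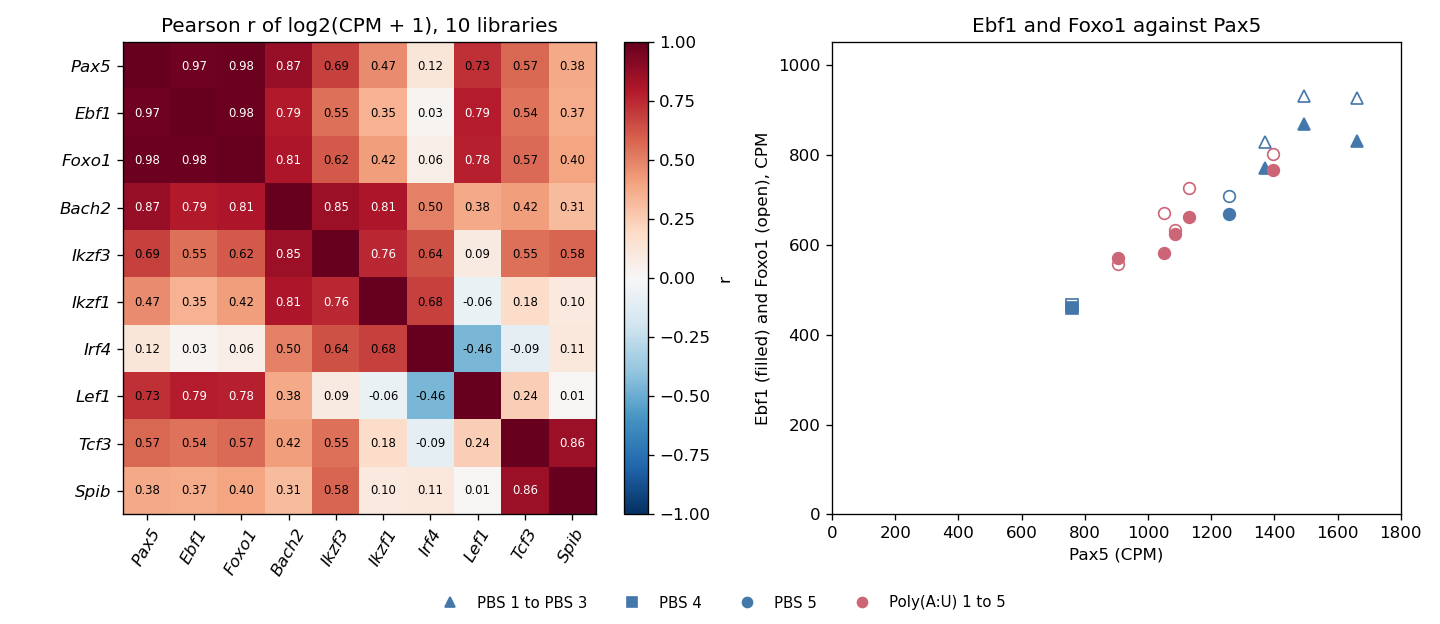
Left, Pearson's r of log2(CPM + 1) for each pair of factors over 10 libraries (red positive, blue negative); right, Ebf1 (filled) and Foxo1 (open) against Pax5 in CPM, 1 symbol per library. The 3 pairs among Pax5, Ebf1 and Foxo1 have r of at least 0.974, and PBS 4 is at the low end and PBS 1 to PBS 3 at the high end of the plotted relation.

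The levels of the factors were also set against a property of the libraries, the balance of long and short transcripts. For each library, the median deviation of 3464 genes with transcripts under 2000 bases was taken from that of 573 genes with transcripts over 6000 bases. This difference was 0.30, -0.00, 0.07, -0.20 and 0.05 on the log2 scale in PBS 1 to PBS 5. In Poly(A:U) 1 to Poly(A:U) 5 it was -0.14, -0.47, -0.07, -0.10 and 0.59. Poly(A:U) 2 and Poly(A:U) 5 are thus at its ends. The 10 factors were left out of it, but it is made of long genes of the same libraries. A relation of long factors with it is therefore partly built in. The share of all genes that pass was not computed, so the counts of factors passing cannot be read as particular to them. Bach2, whose expressed transcripts average 8296 bases, had an r of 0.82 with this difference (rho 0.85, adjusted permutation p = 0.0161 over 10 relations for r), 0.79 without the 2 farthest libraries and 0.80 in the 7 libraries. It was the only factor to pass on r, while 5 passed on rho. The other 4 were Pax5 (6172 bases), with r of 0.73 (adjusted permutation p = 0.0807) and rho of 0.85 (0.0137), Ebf1 (5189 bases), with r of 0.64 and rho of 0.79 (0.0292), Foxo1 (8665 bases), with 0.65 and 0.73 (0.0418), and Ikzf3 (3384 bases), with 0.60 and 0.73 (0.0418). Ikzf1 (4622 bases) had an r of 0.66, as high as those of Ebf1 and Foxo1, but 0.34 without the 2 farthest libraries, and a rho of 0.58, neither r nor rho passing. For Irf4 (4761 bases) r was 0.48 and for Lef1 (2832 bases) 0.45. Tcf3 (2749 bases) and Spib (2543 bases) had the lowest r, -0.02 and -0.19, and these values rest on Poly(A:U) 2 and Poly(A:U) 5: without that pair r was 0.77 for Tcf3 and 0.40 for Spib, against 0.86 for Pax5, 0.75 for Ebf1 and 0.75 for Foxo1. A difference between long and short factors in this relation was not tested. After the fitted line on this difference was taken out, r was 0.964 for Pax5 with Ebf1, 0.970 for Pax5 with Foxo1 and 0.964 for Ebf1 with Foxo1. It fell to 0.689 for Pax5 with Bach2 and from 0.472 to -0.02 for Pax5 with Ikzf1. It rose from 0.574 to 0.858 for Pax5 with Tcf3, from 0.383 to 0.778 for Pax5 with Spib and from 0.314 to 0.837 for Bach2 with Spib. For Lef1 with Irf4 it went from -0.46 to -0.857. These values were not tested. The part of transcript length in the treatment differences was not tested beyond the length-scaled counts, in which Pax5 had a log2 fold change of -0.12, Ebf1 of -0.22, Foxo1 of -0.22 and Bach2 of -0.26 (edgeR, 0 genes called).

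**Figure D4:**
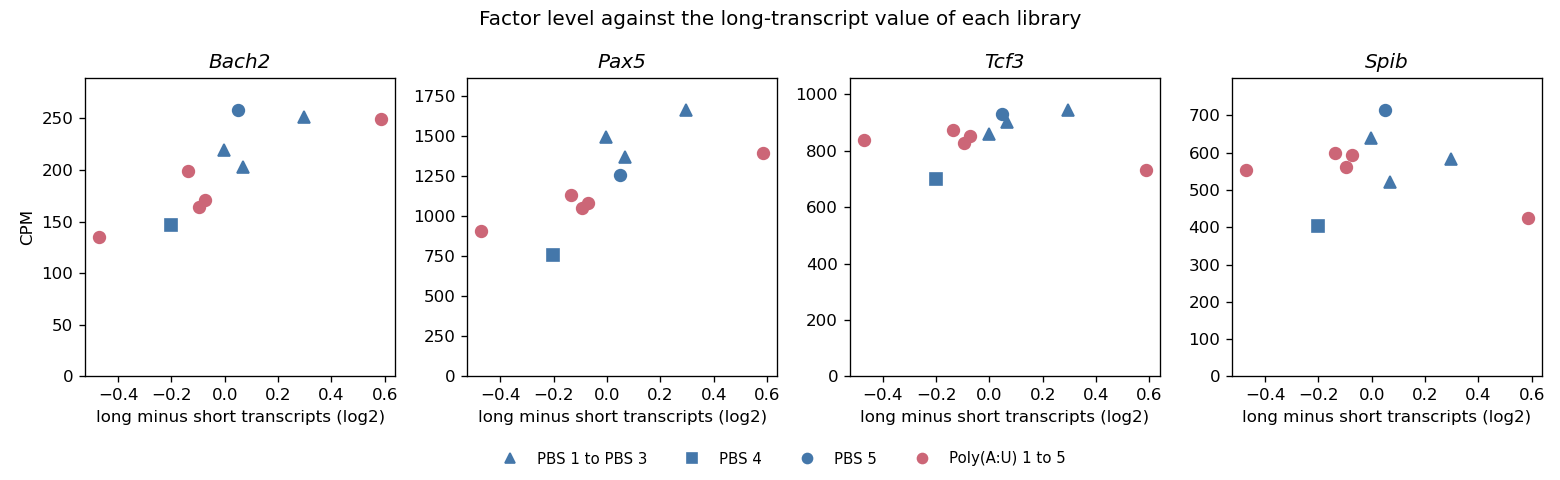
Level of Bach2, Pax5, Tcf3 and Spib (CPM, from 0) against the long-minus-short transcript difference of each library (log2), 1 symbol per library. Over all 10 libraries r is 0.82 for Bach2, 0.73 for Pax5, -0.02 for Tcf3 and -0.19 for Spib, and without the libraries at both ends of the axis it is 0.79, 0.86, 0.77 and 0.40.

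The authors' deposited table holds all 10 factors. In the authors' deposited table Pax5 averaged 1258 ± 323 in PBS and 1154 ± 105 in Poly(A:U), closer together than the sums of reads, and the widest gap to these sums was in Poly(A:U) 2, at 0.42 on the log2 scale. On the authors' deposited values r was 0.855 for Pax5 with Ebf1, 0.874 for Pax5 with Foxo1 and 0.964 for Ebf1 with Foxo1, and 7 pairs passed.

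Isoform use was followed as the share of a gene's summed TPM for the 17 transcripts, from 9 genes, with a mean share of at least 10%. Foxo1 has a single annotated transcript. The smallest two-sided exact permutation p that 5 against 5 libraries can give is 0.00794. After adjustment over the 17 transcripts 0 passed, and 2 had an unadjusted exact p below 0.05, both of Irf4. These 2 make up nearly all of Irf4 (means of 65.8% and 34.2% over all libraries). Their shares are therefore mirror images and count as 1 observation. Irf4-201 and Irf4-202 differ by the 3 bases of a CAG at the start of an exon (chr13:30753445-30753447, mm10, plus strand), in capitals below, and keep the same reading frame.
Irf4-201: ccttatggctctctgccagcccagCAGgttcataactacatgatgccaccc
Irf4-202: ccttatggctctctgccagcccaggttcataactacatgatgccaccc
Irf4-202, the form without the CAG, held 29.6%, 30.6%, 22.9%, 35.2% and 32.6% of Irf4 in PBS 1 to PBS 5 and 30.2%, 43.9%, 40.1%, 38.5% and 38.1% in Poly(A:U) 1 to Poly(A:U) 5. Of the Poly(A:U) libraries 4 lay above all PBS libraries and Poly(A:U) 1 lay among them. The means were 30.2% ± 4.60 and 38.2% ± 5.00 (SD), a difference of 7.95 points (exact permutation p = 0.0317, adjusted p = 0.270). Without PBS 1 to PBS 3 the difference was 4.22 points (exact permutation p = 0.286). Leaving out single libraries gave exact p from 0.0159 to 0.0635.

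Ebf1 has a like pair, in which Ebf1-202 carries a CAG at the start of an exon (chr11:44907904-44907906, mm10, plus strand) that Ebf1-201 lacks.
Ebf1-202: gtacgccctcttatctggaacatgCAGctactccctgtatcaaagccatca
Ebf1-201: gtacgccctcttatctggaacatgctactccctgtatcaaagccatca
Ebf1-202 ranged from 11.1% to 18.6% in PBS and from 6.69% in Poly(A:U) 2 to 26.2% in Poly(A:U) 5, with means of 14.7% ± 2.86 and 15.2% ± 7.75. Ebf1-201, the main form, had 76.1% ± 4.34 and 77.1% ± 8.13. The 2 forms also differ in their annotated ends, Ebf1-202 having 3422 bases and Ebf1-201 5981.

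For Ikzf1, 2 full-length forms made up most of the signal, and they differ by an exon of 60 bases, shown in capitals with the neighbouring exon ends (plus strand, mm10).
Ikzf1 exon, chr11:11740950-11741009: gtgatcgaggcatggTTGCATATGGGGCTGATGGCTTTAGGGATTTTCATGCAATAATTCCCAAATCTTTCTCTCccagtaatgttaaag
Ikzf1-203, the only annotated form of the 6 with this exon, held 32.3% ± 4.22 of Ikzf1 in PBS and 28.5% ± 7.16 in Poly(A:U) (exact permutation p = 0.349). It ranged from 17.5% in Poly(A:U) 2 to 36.9% in PBS 5. Ikzf1-204, without the exon, held 57.8% ± 3.71 and 63.6% ± 9.82. Ikzf3 was mostly Ikzf3-201, 89.0% ± 1.22 and 86.8% ± 4.75, and Spib mostly Spib-201, 87.3% ± 2.75 and 87.6% ± 4.42.

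Tcf3 kept a near constant ratio of its forms. Among transcripts with either exon shown above, those with the E12 exon held 30.8% ± 1.98 in PBS and 30.3% ± 1.16 in Poly(A:U), and each library lay between 28.3% and 33.0%, a summary chosen after the values were seen and given without a test. The forms with the E47 exon were therefore the larger part in every library. Of single transcripts, Tcf3-202 had 40.4% ± 3.04 and 38.6% ± 3.51, Tcf3-207 21.9% ± 2.56 and 22.5% ± 2.47, and Tcf3-210 19.5% ± 1.91 and 20.8% ± 2.82.

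Pax5-201, the full-length form of 8004 bases, held 77.4% ± 4.49 of Pax5 in PBS and 69.7% ± 11.1 in Poly(A:U), a difference of -7.71 points (exact permutation p = 0.190). The size of this difference depended on the measure and on single libraries: it was -1.35 points on shares of estimated reads, -3.80 when Poly(A:U) 2 was left out and -11.1 when Poly(A:U) 5 was (exact permutation p = 0.0476, adjusted p = 0.270). It was at 54.1% in Poly(A:U) 2 and at 83.1% in Poly(A:U) 5, the libraries at the ends of the long-transcript difference. Pax5-210, an annotated form of 1019 bases, held 14.2% ± 3.72 and 15.6% ± 5.49. It lacks an exon of 166 bases in the part that encodes the paired DNA-binding domain, and its coding sequence of 1007 bases is not a multiple of 3. The annotated ends differ as well, Pax5-210 stopping at 44531497 and Pax5-201 at 44524757. Most of the difference in length therefore lies outside the exon. The exon is shown because it is the only exon of Pax5-201 within the span of Pax5-210 that Pax5-210 lacks (minus strand, mm10).
Pax5 exon, chr4:44697522-44697687: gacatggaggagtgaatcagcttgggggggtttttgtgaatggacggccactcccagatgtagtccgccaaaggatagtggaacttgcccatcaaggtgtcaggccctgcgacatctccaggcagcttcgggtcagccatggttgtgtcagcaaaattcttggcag
How many reads crossed the junctions of this exon is not in the deposited estimates, so the share of the short form rests on the authors' estimation alone.

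Lef1 and Bach2 were each divided between forms with different first exons. Lef1-201 (3482 bases) held 50.3% ± 7.17 in PBS and 50.0% ± 11.2 in Poly(A:U), and Lef1-203 (2298 bases), which begins downstream, 37.1% ± 8.56 and 40.0% ± 12.2. Lef1-203 is an annotated form that lacks the start of the coding sequence of Lef1-201, which holds the region that binds beta-catenin. Its first exon of 24 bases is in capitals, followed by the next exon (plus strand, mm10).
Lef1-203 first exon, chr3:131112797-131112820: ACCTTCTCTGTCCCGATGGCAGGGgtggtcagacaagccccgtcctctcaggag
It ranged from 21.5% in Poly(A:U) 5 to 54.9% in Poly(A:U) 2, again the 2 libraries at the ends of the long-transcript difference, whose part in these shares was not tested. Bach2-202, which starts at 32238804, held 50.5% ± 10.6 and 52.9% ± 9.38, and Bach2-207, which starts at 32417435 and has the same coding length of 2517 bases, 44.8% ± 8.92 and 41.8% ± 10.2.

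**Figure D5:**
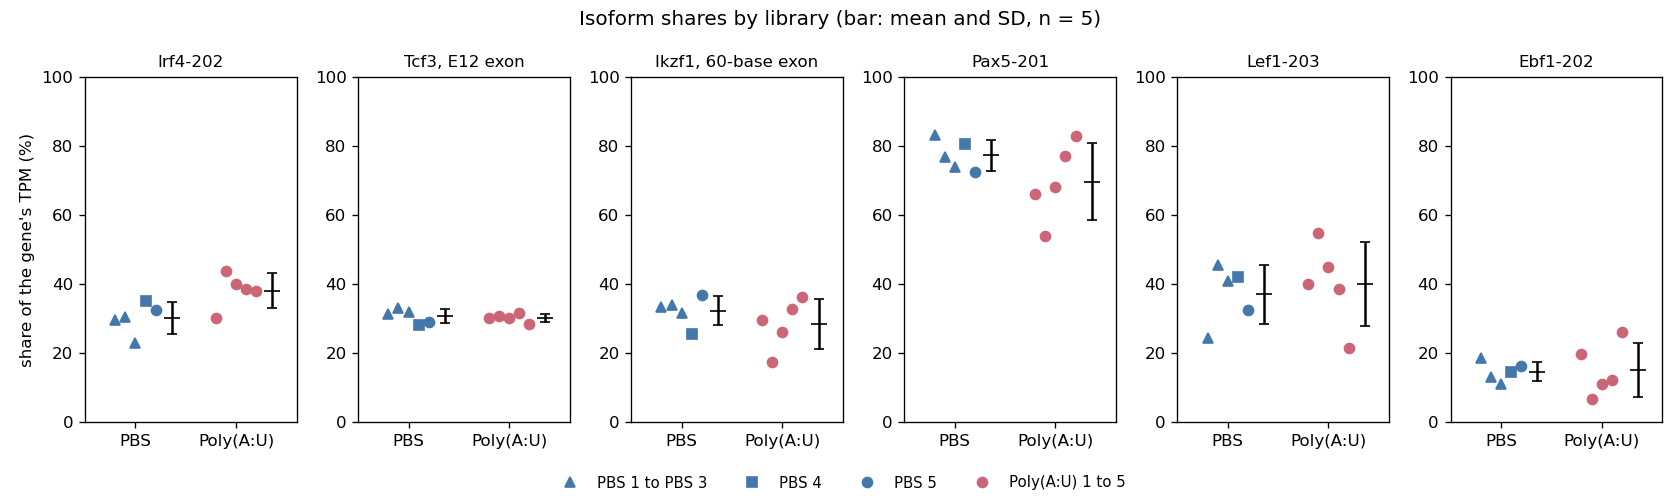
Share of each gene's TPM (%, from 0 to 100) held by 6 isoforms or exons in each library, PBS in blue and Poly(A:U) in red, with mean and SD of 5 libraries. Irf4-202 averages 30.2% and 38.2%, the Tcf3 E12 exon stays between 28.3% and 33.0%, and Pax5-201 and Lef1-203 spread most among the Poly(A:U) libraries.

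Genes that the factors act on, listed from textbook knowledge, gave 0 calls in edgeR's test as well. Of 13 genes activated by Pax5, 5 had a positive and 8 a negative log2 fold change (median -0.05). Id3, an inhibitor of E proteins, had 58.8, 67.9, 89.9, 135 and 104 CPM in PBS and 96.6, 167, 140.3, 127 and 140.2 CPM in Poly(A:U), so that PBS 1 to PBS 3 lay below every Poly(A:U) library. Its means were 91.1 ± 30.2 and 134 ± 25.5 CPM, a log2 fold change of 0.53 ± 0.23 (SE; edgeR adjusted p = 0.677). Bcar3, an adaptor protein gene, had 35.4 ± 11.9 and 27.2 ± 3.40 CPM. Of 6 genes repressed by Pax5, 4 passed the filter and all 4 had a negative value (median -0.52), at low levels: Flt3, a progenitor receptor, had 2.08 ± 0.78 and 1.34 ± 0.43 CPM, and Csf1r, the macrophage growth factor receptor, 5.33 ± 3.86 and 2.86 ± 1.82 CPM. Csf1r was at 12.2 CPM in PBS 4 and at 1.66 to 6.02 CPM elsewhere. The macrophage markers, of which it is 1, summed to 134 to 165 CPM in PBS 1 to PBS 3 and 171 CPM in PBS 4. The part of macrophages in the Csf1r values was not tested.

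Of 8 genes activated by Ebf1 and E proteins, 1 was positive and 7 negative with a median of only -0.03. Fcrla, an Fc receptor relative, had 193 ± 71.9 and 169 ± 42.0 CPM, and Pou2af1, an octamer coactivator, 1187 ± 126 and 1176 ± 25.6 CPM. Of 8 genes activated by Foxo factors, 3 were positive and 5 negative (median -0.13). Rag2, a subunit of the recombinase, had 149 ± 16.4 and 184 ± 22.4 CPM (log2 fold change 0.28 ± 0.09 SE), and Il7r, the interleukin-7 receptor, 309 ± 45.5 and 268 ± 24 CPM (-0.23 ± 0.10 SE), neither passing edgeR's test (adjusted p = 0.677 for both). These 2 Foxo1 targets thus had values of opposite sign. Of 8 genes of the PI3K and AKT pathway, which controls Foxo1 protein, 2 were positive and 6 negative (median -0.11). The kinase gene Akt2 had 148 ± 7.86 and 137 ± 8.84 CPM, and Inpp5d, the lipid phosphatase SHIP1, 744 ± 131 and 666 ± 67.7 CPM. RNA levels say nothing of Foxo1 protein in the nucleus.

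Among 18 relatives, partners and inhibitors of the factors, 15 passed the filter, 4 positive and 11 negative (median -0.20), and Ebf2 had 0 reads in all 10 libraries. Besides Id3, the smallest unadjusted p was that of Irf2, at 166 ± 28 and 142 ± 10 CPM (edgeR adjusted p = 0.686). Of 16 other transcription factors of B cell development, 6 were positive and 10 negative (median -0.13). Sox4, an HMG box factor of early B cell survival, had 464 ± 42.4 and 391 ± 36.7 CPM (log2 fold change -0.28 ± 0.09 SE), and Runx1, which acts with Ebf1, 179.7 ± 17.5 and 156 ± 13.5 CPM (-0.23 ± 0.08 SE), both with an edgeR adjusted p of 0.677.

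The genes whose pattern over the 10 libraries was nearest to that of each factor were sought among 8631 tested genes of at least 10 CPM, by the root mean square difference of centred log2(CPM + 1). For Pax5 they were Akap13, an anchoring protein of protein kinase A (0.086), and Pik3r1, the regulatory subunit of PI3K (0.088), where the median over all genes was 0.349. Ebf1 was nearest to a pair of ETS factor genes, Elk3 (0.080) and Erg (0.082), with a median of 0.301. Foxo1 was nearest to Ssh1, a cofilin phosphatase (0.078), and Dip2b (0.082), with a median of 0.326. Expressed transcripts averaged over 6000 bases for Pax5, Foxo1 and the neighbours of both, but not for Elk3 (3087 bases) and Erg (2626 bases). For other factors and the neighbours given below, lengths were close in some cases and unlike in others. Irf4 (4761 bases) had Suco (4383 bases) and Slc41a1 (4609 bases). Lef1 (2832 bases) had Stim2 (3021 bases), and Ikzf1 had Ets1 (4979 bases). Lengths were further apart in the following cases. Bach2 (8296 bases) had Rai1 (4085 bases) and Cmip (2417 bases). Ikzf3 (3384 bases) had Ptpn14 (9298 bases), and Ikzf1 (4622 bases) had Zfp319 (7232 bases). A part of length in these likenesses was not tested.

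Ikzf1 was nearest to the ETS factor gene Ets1, at 0.033 the closest likeness of all 10, with Zfp319 next (0.050). Ets1 had a mean of 609 ± 71.0 CPM over 10 libraries, and Ikzf1 551 ± 57.6 CPM. Spib was nearest to Ighm, the mu heavy chain (0.065), and Cir1, a corepressor gene (0.090). For Tcf3 the genes were Fam32a (0.047) and Stx5a (0.048), for Lef1 the calcium sensor gene Stim2 (0.069) and the adaptor gene Grb7 (0.070), for Irf4 Suco (0.068) and the magnesium transporter gene Slc41a1 (0.087), and for Bach2 Rai1 (0.099) and Cmip (0.107). Ikzf3 had no close match, the nearest being the heavy chain segment Ighv2-2 (0.171) and Ptpn14 (0.200).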

How the data were processed

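Per the file headers, the authors' deposited files give estimated counts and TPM for every transcript of a library, with its length and effective length. The authors' deposited table of the series holds a normalized signal, CPM scaled with edgeR. DRAGEN, edgeR 3.38.4 and mm10 are named in the submitters' processing notes. Counting settings, annotation release and strand use were not given in the sources used here, so reads of overlapping antisense genes cannot be told apart. Of 142333 transcripts, 538 without a gene in GENCODE M21 (0.046% to 0.0695% of reads) were left out. Estimated counts were summed per gene and rounded, and CPM used library totals. No 2 libraries agreed within sampling noise.

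Groups followed the labels. edgeR 4.0.16 (quasi-likelihood test, TMM, filterByExpr with a minimum count of 10, R 4.3.3) compared 5 PBS with 5 Poly(A:U) libraries over 13729 genes, with Benjamini-Hochberg adjustment and a threshold of 0.05, two-sided. Alternatives used DESeq2 1.42.0, limma 3.58.1, other factors and filters, a replicate block, name parts as terms, single libraries left out and length-scaled counts (TPM times mean effective length). The last of these, the pair counts on the authors' deposited values and without PBS 1 to PBS 3, and the long-transcript difference were chosen after seeing the data. Only the edgeR fit was tested on simulated data, not those of DESeq2 and limma. Isoform shares used exact permutation tests, and correlations 100000 permutations with a pseudocount of 1. Named genes were the 10 factors, the 2 list genes with the smallest unadjusted p where none passed, the 2 nearest genes in pattern, and transcripts of at least 10% share. The factors and lists were chosen with earlier results of these data known.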

Additional observations from a re-analysis of the deposited data

Results flagged for a closer look

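Of 54 groups of 5 values examined, 4 held a library whose gap to its nearest neighbour exceeded 0.71 of the group's range, where chance gives about 1 in 20. Ikzf3 was at 46 CPM in Poly(A:U) 2, the other Poly(A:U) libraries lying between 77.5 and 83.0 CPM. Spib was at 424 CPM in Poly(A:U) 5, against 553 to 599 CPM in the other 4. Irf4 was at 354 CPM in PBS 5, against 231 to 251 CPM in the other PBS libraries. The Tcf3-210 transcript held 25.8% of Tcf3 in Poly(A:U) 4, against 19.1% to 19.9% in the other 4.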

How the results depend on the processing

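Over all genes, edgeR called 0 under each change of factors, filter, terms and counts and 0 to 18 with single libraries left out, 18 being the value without PBS 5. DESeq2 called 13 and limma voom with quality weights 870. Of the 10 factors 0 were called in each of these fits except limma voom, which called 4. The fit with name parts as terms rests on the pairs of PBS 4 and PBS 5. There the log2 fold change was 0.31 for Pax5, 0.31 for Ebf1, 0.36 for Foxo1, 0.18 for Lef1 and 0.14 for Bach2. Without PBS 1 to PBS 3 it was 0.11, 0.15, 0.18 and 0.17 for Pax5, Ebf1, Foxo1 and Lef1 and -0.10 for Irf4. That fit leaves PBS 4 and PBS 5 as the only PBS libraries. The numbers of the titles only number the pups: same-numbered libraries deviated with r of 0.02, 0.14, 0.14, -0.13 and -0.18, and the replicate block left 0 genes, 0 factors and 0 isoforms called. The count of correlated pairs was 11, 4 to 14 with single libraries left out, and 7 on the authors' deposited values.

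For isoforms 0 passed under any setting. The share difference of Ebf1-201 was -0.604 points on shares of reads and -0.516 with protein-coding transcripts only. Without PBS 1 to PBS 3 it was 1.25 for Lef1-201, -3.53 for Bach2-202, 0.979 for Bach2-207 and -0.127 for Ebf1-202. With single libraries left out it ran from -4.78 to 2.91 for Lef1-201, -0.727 to 7.61 for Lef1-203, -0.151 to 3.53 for Pax5-210, -1.26 to 1.70 for Spib-201, -1.43 to 3.73 for Ebf1-201, -2.24 to 2.64 for Ebf1-202, -1.58 to 5.36 for Bach2-202, -5.98 to 0.0830 for Bach2-207 and -0.466 to 1.25 for Tcf3-207. The cause of these changes was not tested. The lowest level of the 10 genes in any library was 46 CPM, and the parts of depth and of pups in the spread were not separated.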
